A study of Homo sapiens with 6 samples.

Results

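The genes of TGF-beta, activin and bone morphogenetic protein (BMP) signalling were followed through MUC1 silencing in triple-negative breast cancer cells. The members were 44 genes chosen by function, as ligands, extracellular regulators, receptors, SMAD proteins, ubiquitin ligases or corepressors, and target genes, and each was read from its row in a count table of 37887 genes. By their usual partners, 18 were counted in the TGF-beta/activin arm, 17 in the BMP arm and 9 as shared by both arms. MDA-MB-436, an established triple-negative breast cancer line with a BRCA1 mutation, stably carried a doxycycline-inducible MUC1 shRNA in every library. Control cultures received 0.1% DMSO as vehicle and shMUC1 cultures received 500 ng/ml doxycycline, with 3 libraries per group. The sample titles call the vehicle group a control shRNA, whereas the treatment labels give vehicle on the cells with the inducible MUC1 shRNA, and that reading was used. Doxycycline was given only to the shMUC1 group, so an effect of the drug itself cannot be told apart from that of the shRNA. The libraries come from a single line and a single MUC1 shRNA, and the length of treatment is not given in the sources used here.

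In this family, a dimeric ligand brings together type II and type I receptor kinases, and the type I receptor phosphorylates a receptor-activated SMAD. TGF-beta and activin receptors mainly use SMAD2 and SMAD3, whereas BMP receptors mainly use SMAD1, SMAD5 and SMAD9, and either set enters the nucleus with SMAD4. SMAD6 and SMAD7 inhibit these steps, and the SMURF ubiquitin ligases and the SKI family of corepressors limit the signal further. In breast epithelium TGF-beta is known for growth arrest and, in carcinoma cells, for epithelial-mesenchymal transition, and BMPs are known for inducing the ID genes. RNA levels were measured here, not protein, phosphorylation or signalling.

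SMAD-binding words were searched in the promoters of the members, since several members are known feedback targets of their own pathway. RefSeq promoter windows (build GRCh38.p14) were found for 39 of the 44 members, with 76 windows in all, and the 250 bases before each start were read on both strands for the palindrome GTCTAGAC, for the SMAD-box word CAGACA, for the BMP-SMAD word GGCGCC and for its variant GGAGCC. Matches of different words were counted separately, also where they shared bases. Some genes have several windows, which can overlap, so 1 site can be counted more than once. The palindrome, which SMAD3 and SMAD4 can bind, lay in the window of 1 member, SMAD6, and in 0.182% of all 35116 windows. GGAGCC lay in 44.7% of the member windows, 37.9% of the windows of tested genes and 30.6% of all windows. GGCGCC lay in 22.4% of the member windows, 24.3% of those of tested genes and 16.4% of all, and CAGACA in 19.7%, 10.7% and 13.6%. By gene, GGAGCC lay in 25 of 39 members and 5195 of 11187 tested genes. GGCGCC lay in 15 and 3513 of them, and CAGACA in 11 and 1574. A match is a description of these letters and not a binding site. The windows of SMAD6, which fell most of the SMADs, of ID1, the target gene with the highest level per length, and of TGFBR2, the receptor that rose, are shown with the searched words in capitals. They lie at chr15:66701986-66702235 on the plus strand, chr20:31605039-31605288 on the plus strand and chr3:30606106-30606355 on the plus strand.
SMAD6 promoter: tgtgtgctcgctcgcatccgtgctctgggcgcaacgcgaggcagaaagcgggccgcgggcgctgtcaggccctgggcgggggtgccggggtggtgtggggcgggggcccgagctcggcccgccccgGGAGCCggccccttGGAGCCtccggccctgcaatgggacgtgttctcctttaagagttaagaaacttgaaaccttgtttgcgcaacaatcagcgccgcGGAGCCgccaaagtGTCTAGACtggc
ID1 promoter: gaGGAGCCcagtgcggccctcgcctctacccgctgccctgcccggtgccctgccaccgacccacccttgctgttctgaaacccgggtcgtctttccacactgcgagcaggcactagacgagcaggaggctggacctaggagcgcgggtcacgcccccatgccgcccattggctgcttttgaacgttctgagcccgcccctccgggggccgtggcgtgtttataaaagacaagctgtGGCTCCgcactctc
TGFBR2 promoter: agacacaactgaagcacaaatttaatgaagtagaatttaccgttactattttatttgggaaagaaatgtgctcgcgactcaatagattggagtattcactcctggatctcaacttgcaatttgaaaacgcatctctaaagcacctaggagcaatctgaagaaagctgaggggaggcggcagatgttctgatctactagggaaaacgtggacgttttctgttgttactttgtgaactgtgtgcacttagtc
The SMAD6 window carried GTCTAGAC 12 bases before the start and GGAGCC at 3 places, ID1 carried GGAGCC or its complement at 2 places, and the TGFBR2 window carried 0 of the 4 words.

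MUC1, the targeted gene (chr1:155185824-155192916, minus strand, GRCh38), was lower in shMUC1 cells. It was at 4.24, 3.45 and 3.95 counts scaled to the library total (counts per 1000000, CPM) in control and at 2.61, 1.98 and 1.83 CPM in shMUC1 libraries. Tested with edgeR, its log2 fold change was -0.84 (SE 0.216, adjusted p = 0.000808). These are 84 to 102 reads in control and 34 to 72 in shMUC1 libraries, and the groups did not overlap. Library totals ran from 18678307 to 27825546 counts, and the first principal component, with 73.2% of the variance, separated the groups. In bulk libraries, fewer cells that make a transcript and less of it per cell cannot be told apart. ESR1 and PGR, the hormone receptors that triple-negative cells lack, had 0 to 12 counts per library.

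Of the 43 members tested, 11 were higher and 17 lower in shMUC1 cells at an adjusted p under 0.05, and 15 were not called. Among all 15355 genes tested, 25.3% were called higher and 23.8% lower, so the count of higher members (25.6%) lay at the background and that of lower members (39.5%) above it. At a fold change over 1.5, 6 of the 43 were higher, beside 5.51% of all genes, and 4 of the 43 lower, beside 8.40%. Past this limit the share of higher members lay above the background and that of lower members near it. At the fold change over 2 that the study used, ID3 and LTBP3 were higher and SMAD6 was lower, beside 2.21% and 3.76% of all genes. The values of 28 members did not overlap between groups, as held for 54.8% of all genes. The median log2 fold change of the members was -0.11, beside 0.000583 for all genes. ID4, the remaining member, had 0 counts in all 6 libraries, and ID3 passed the filter on low counts through its shMUC1 libraries, since only 2 of its 3 control libraries were over the limit of 0.401 CPM.

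**Figure D1:**
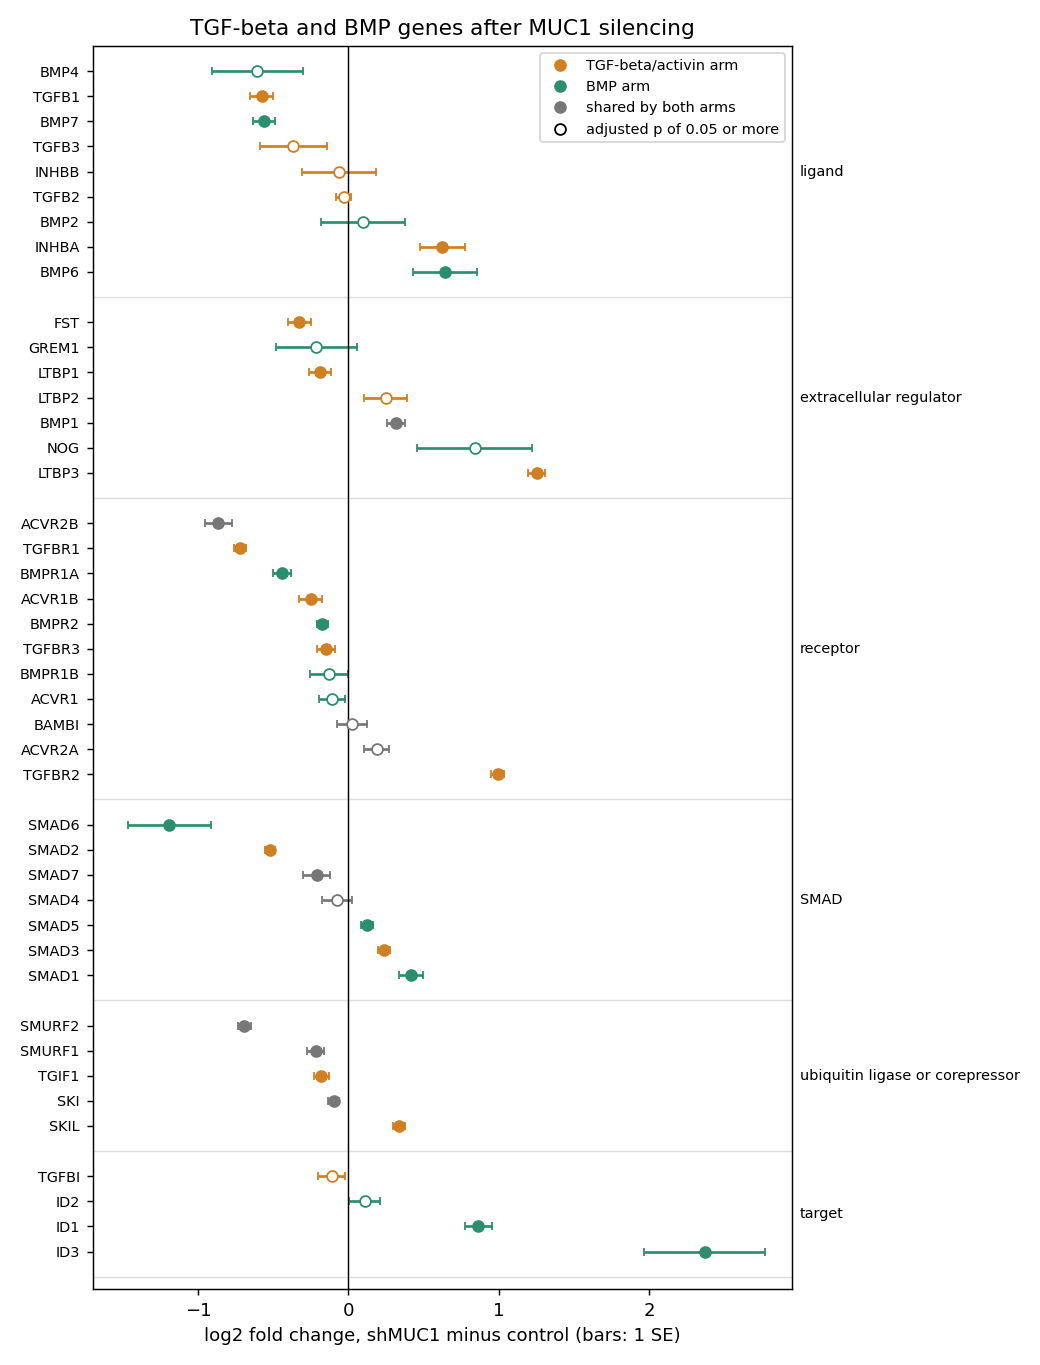
The plot gives the log2 fold change (shMUC1 minus control, x axis) with its SE for each of the 43 tested members, grouped by role and coloured by arm, with open circles for members that were not called. ID3, LTBP3 and TGFBR2 lie farthest to the right and SMAD6, ACVR2B and TGFBR1 farthest to the left among called members.

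The arms were set side by side as descriptions, since their members were chosen by name. In the TGF-beta/activin arm, 5 of 18 members were higher (27.8%, beside 25.3% of all tested genes) and 8 lower (44.4%, beside 23.8%), with a median log2 fold change of -0.13. In the BMP arm, 5 of 16 tested members were higher (31.2%) and 4 lower (25%), both near the shares of all tested genes, with a median of -0.0044 whose sign changed under 4 of the 14 alternatives. Of the 9 shared members, 1 was higher (11.1%) and 5 lower (55.6%), with a median of -0.0967. Summed over members, the TGF-beta/activin arm stood at 1185 to 1203 CPM in control and 1188 to 1269 CPM in shMUC1 libraries, and the BMP arm at 513 to 537 and 497 to 518 CPM. The sums of both arms overlapped between groups. The shared members summed to 505 to 547 CPM in control and 446 to 451 CPM in shMUC1 libraries, without overlap. SMURF2 had the largest change in CPM among them, from a mean of 144 to 89.3 CPM. The means of BMP1, ACVR2A and BAMBI were higher in shMUC1 libraries. The tested members with a mean under 50 counts (ID3, SMAD6, NOG, BMP2, BMP4 and GREM1) were all in the BMP arm. The difference between the arms was not tested, nor was the part of depth in it.

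Both arms held a ligand that rose and a ligand that fell. INHBA, which encodes the activin A subunit (chr7:41667168-41705834), was at 4.65, 4.93 and 4.72 CPM in control and 6.95, 7.34 and 7.85 CPM in shMUC1 libraries. Every shMUC1 library lay above every control library, at a log2 fold change of 0.62 (SE 0.148, adjusted p = 0.000295). BMP6, a BMP ligand (chr6:7726797-7881422), was at 2.51, 2.50 and 2.01 CPM in control and 3.51, 3.88 and 3.55 CPM in shMUC1 libraries. Its groups did not overlap either, at a log2 fold change of 0.64 (SE 0.213, adjusted p = 0.00965), which without control replicate 3 was 0.53 with an adjusted p of 0.0593. TGFB1, the best known TGF-beta ligand, fell by 0.58 on the log2 scale, from 32.3 ± 0.838 to 21.6 ± 0.921 CPM (mean ± SD, n = 3 each). BMP7 fell by 0.56 on the log2 scale, from 38.3 ± 0.518 to 25.9 ± 1.55 CPM. Both were called, at adjusted p values of 2.41e-09 and 6.03e-10. TGFB2 had the highest level per length of the ligands in control, 15.6 CPM per kilobase of annotated exon, and was not called at a log2 fold change of -0.03. Annotated exons of TGFB2-OT1 cover 26.6% of TGFB2 on the same strand, and reads there cannot be assigned to either gene. BMP4 (-0.61), TGFB3 (-0.37), INHBB (-0.06) and BMP2 (0.10) were not called, and each averaged 42 to 68.5 counts per library. BMP4 was low in control replicate 3, at 1.08 CPM beside 2.65 and 2.71, and without that library it was called lower, at -0.95 with an adjusted p of 0.00747.

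Among the extracellular regulators, the latent TGF-beta binding proteins, some of which tether the latent ligand to the matrix, diverged. LTBP3 (chr11:65538805-65558930) was at 39.9, 36.5 and 42.3 CPM in control and at 92.5, 97.5 and 92.5 CPM in shMUC1 libraries. All shMUC1 libraries lay far above the controls, at a log2 fold change of 1.25 (SE 0.0538, adjusted p = 1.18e-29). LTBP1 was lower, at -0.19 (adjusted p = 0.0219), and LTBP2 was not called, at 0.25 (adjusted p = 0.148). LTBP1 lost its call without control replicate 1, shMUC1 replicate 1 or shMUC1 replicate 3, with adjusted p values of 0.0744, 0.172 and 0.101. FST, the activin-binding follistatin, had the highest level per length of these regulators in control, 11.2 CPM per kilobase, and fell by 0.33 on the log2 scale (adjusted p = 0.000209). BMP1, a protease that cleaves procollagens and the BMP antagonist chordin, rose by 0.32 (adjusted p = 1.3e-05). The BMP antagonists NOG and GREM1 were not called, at 0.84 and -0.21. NOG had 10 to 38 counts per library and was called higher without control replicate 2 (1.25, adjusted p = 0.0198) or without shMUC1 replicate 1 (1.04, adjusted p = 0.0382).

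The TGF-beta receptor pair moved in opposite directions. TGFBR2, the type II receptor that binds TGF-beta first (chr3:30606502-30694142), was at 121, 112 and 117 CPM in control and at 231, 249 and 212 CPM in shMUC1 libraries. It was 1.99-fold higher, at a log2 fold change of 0.99 (SE 0.0431, adjusted p = 7.16e-22). TGFBR1, the type I receptor it activates (chr9:99104038-99154192), was at 147, 150.4 and 148 CPM in control and at 91.6, 91.7 and 86.5 CPM in shMUC1 libraries. It was 1.65-fold lower, at a log2 fold change of -0.72 (SE 0.0407, adjusted p = 8.73e-24). Within a library, TGFBR2 counts were 0.742 to 0.823 of TGFBR1 counts in control and 2.46 to 2.72 of them in shMUC1 cells. This ratio and 4 others were chosen after the values of their genes were seen, so they are given as descriptions with no test.

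**Figure D2:**
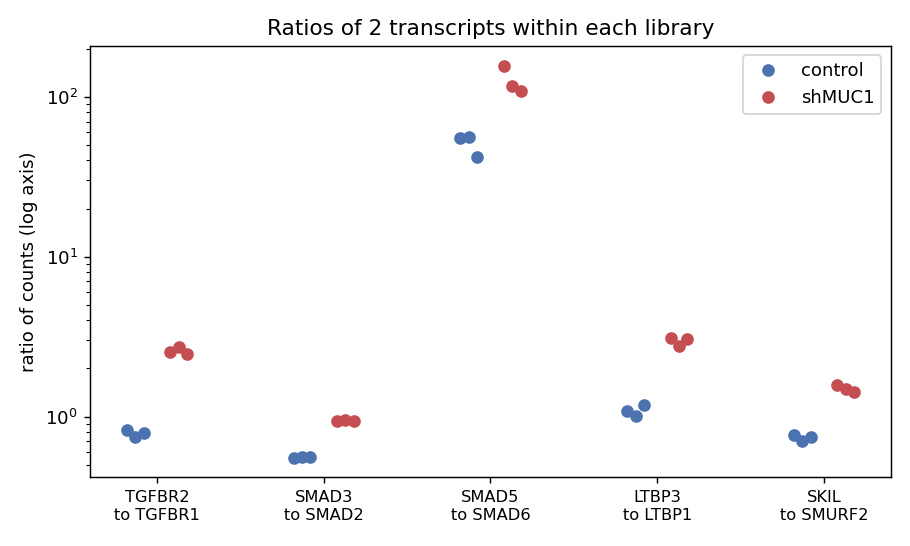
The plot gives the ratio of counts of 2 transcripts (log y axis) in each library, control in blue and shMUC1 in red, for 5 pairs chosen after their values were seen. TGFBR2 to TGFBR1 lies below 1 in the control libraries and above 2 in the shMUC1 libraries, and the groups are apart in all 5 pairs.

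ACVR2B, a type II receptor for activins and some BMPs (chr3:38453851-38493142), was the receptor with the largest fall among those called. It was at 31.8, 31.5 and 27.3 CPM in control and at 19.0, 15.9 and 14.5 CPM in shMUC1 libraries, without overlap. Its log2 fold change was -0.86 (SE 0.088, adjusted p = 7.48e-13). Of 11 receptor genes, TGFBR2 was the 1 higher (9.09%, beside 25.3% of all tested genes) and 6 were lower (54.5%, beside 23.8%). The type I BMP receptor BMPR1A fell by 0.44 on the log2 scale (adjusted p = 3.37e-09). The type I activin receptor ACVR1B fell by 0.25 (adjusted p = 0.00491), the type II BMP receptor BMPR2 by 0.17 (adjusted p = 3.33e-05) and the coreceptor TGFBR3 by 0.15 (adjusted p = 0.0312). TGFBR3 lost its call without any 1 of control replicate 1, control replicate 2 or the 3 shMUC1 replicates, with adjusted p values from 0.0505 to 0.118. ACVR1B lost its call without control replicate 1 (adjusted p = 0.0582). Of BMPR1A, 8.03% of its 75-base stretches also lie in other annotated transcripts, among them its pseudogenes BMPR1AP1 and BMPR1AP2. ACVR2A (0.19), BAMBI (0.02), ACVR1 (-0.11) and BMPR1B (-0.13) were not called, and ACVR2A was called higher without control replicate 2 (adjusted p = 0.0321). BAMBI, a decoy receptor without kinase activity, was highest in shMUC1 replicate 3 at 23.6 CPM, and its sign changed without that library (-0.13).

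**Figure D3:**
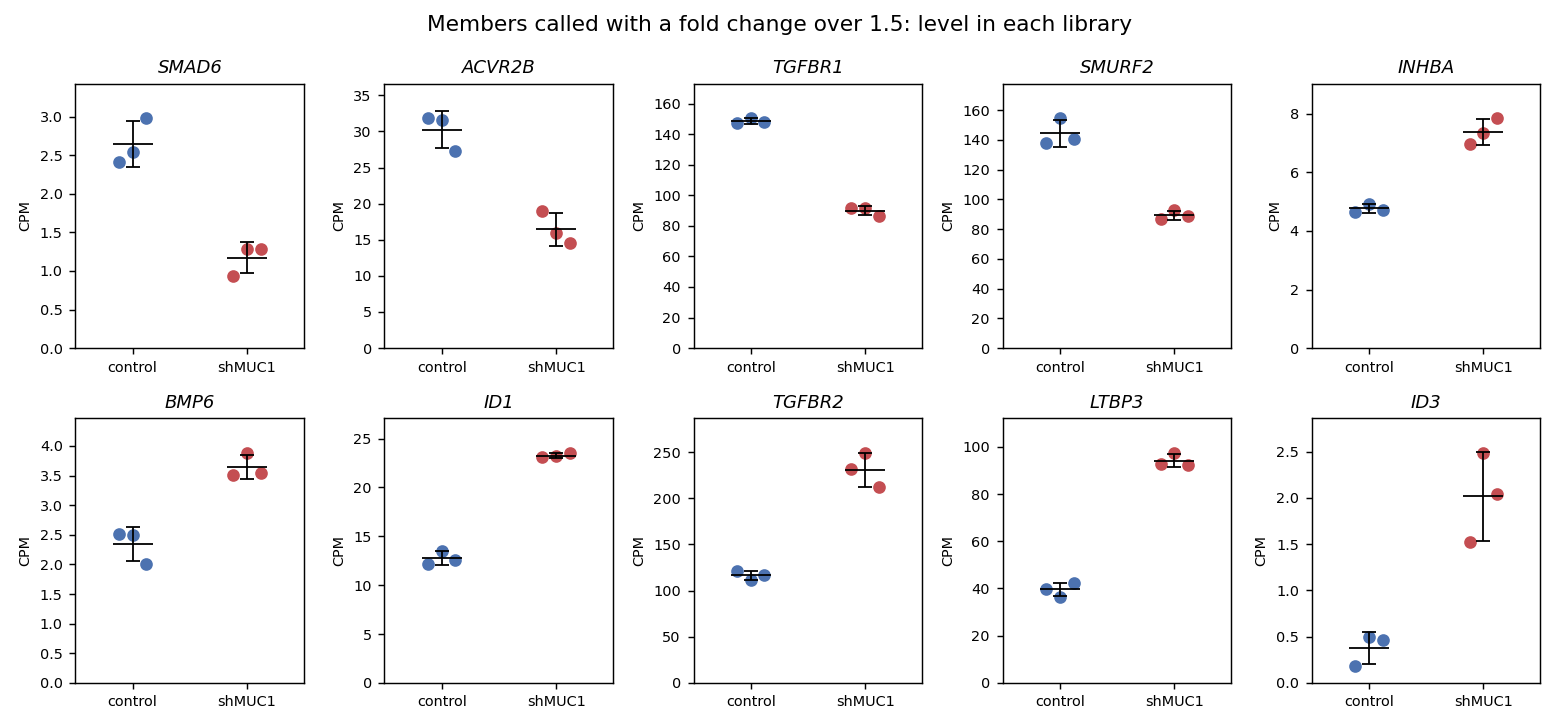
Each panel gives the level of 1 member in CPM (y axis from 0) in the 3 control (blue) and 3 shMUC1 (red) libraries, with the mean and SD in black, for the 10 members called with a fold change over 1.5. The groups do not overlap in any of the 10 panels, whose members were chosen by their difference, and do not overlap for 54.8% of all tested genes.

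The receptor-activated SMADs did not move together in either arm. SMAD3, SMAD1 and SMAD5 were higher and SMAD2 was lower, as was SMAD9, a BMP SMAD outside the members. SMAD2 was at 269.8, 266 and 261 CPM in control and at 191, 181 and 183 CPM in shMUC1 libraries, a log2 fold change of -0.52 (SE 0.0341, adjusted p = 7.94e-21). SMAD3 was at 149, 149 and 146 CPM in control and at 179.6, 172 and 172 CPM in shMUC1 libraries, a log2 fold change of 0.24 (SE 0.0368, adjusted p = 1.47e-07). Both were apart between the groups, and SMAD3 counts went from 0.552 to 0.561 of SMAD2 counts in control to 0.938 to 0.950 of them in shMUC1 cells. SMAD3 had the highest level per length of the SMADs in control, 16.3 CPM per kilobase. SMAD2 was at 7.31 CPM per kilobase despite its higher CPM. Its annotated exons span 36366 bases, beside 9113 for SMAD3, so this order depends on the annotation. SMAD1 rose by 0.42 on the log2 scale (SE 0.0792, adjusted p = 8.64e-06), from 25.1, 21.8 and 23.7 CPM to 31.6, 34.4 and 28.2 CPM. SMAD5 rose by 0.12 (SE 0.0409, adjusted p = 0.00972), from 134, 142 and 126 CPM to 148, 151 and 139.6 CPM. Its groups overlapped, and it lost its call without control replicate 3 (adjusted p = 0.198) or shMUC1 replicate 2 (adjusted p = 0.0644). SMAD4, the partner of both arms, was not called at -0.08 (SE 0.100, adjusted p = 0.554), with 14.0, 15.1 and 16.0 CPM in control and 14.9, 14.3 and 13.4 CPM in shMUC1 libraries.

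SMAD6, the inhibitory SMAD that acts mainly on the BMP arm (chr15:66702228-66782848), was the member with the largest fall. It was at 2.42, 2.55 and 2.98 CPM in control and at 0.941, 1.28 and 1.29 CPM in shMUC1 libraries, 53 to 77 counts beside 24 to 33. The groups did not overlap, at a log2 fold change of -1.19 (SE 0.277, adjusted p = 0.00024). SMAD7, which inhibits both arms, went from 19.7 ± 0.531 to 17.0 ± 0.404 CPM, a log2 fold change of -0.21 (adjusted p = 0.0466). That call was lost without any 1 of the 6 libraries, with adjusted p values from 0.0561 to 0.139, and in DESeq2 (adjusted p = 0.0575). SMAD9, the third BMP SMAD, was in a pathway list and not among the members. It was lower at -0.96 (adjusted p = 0.00295) on a mean of 46.8 counts.

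**Figure D4:**
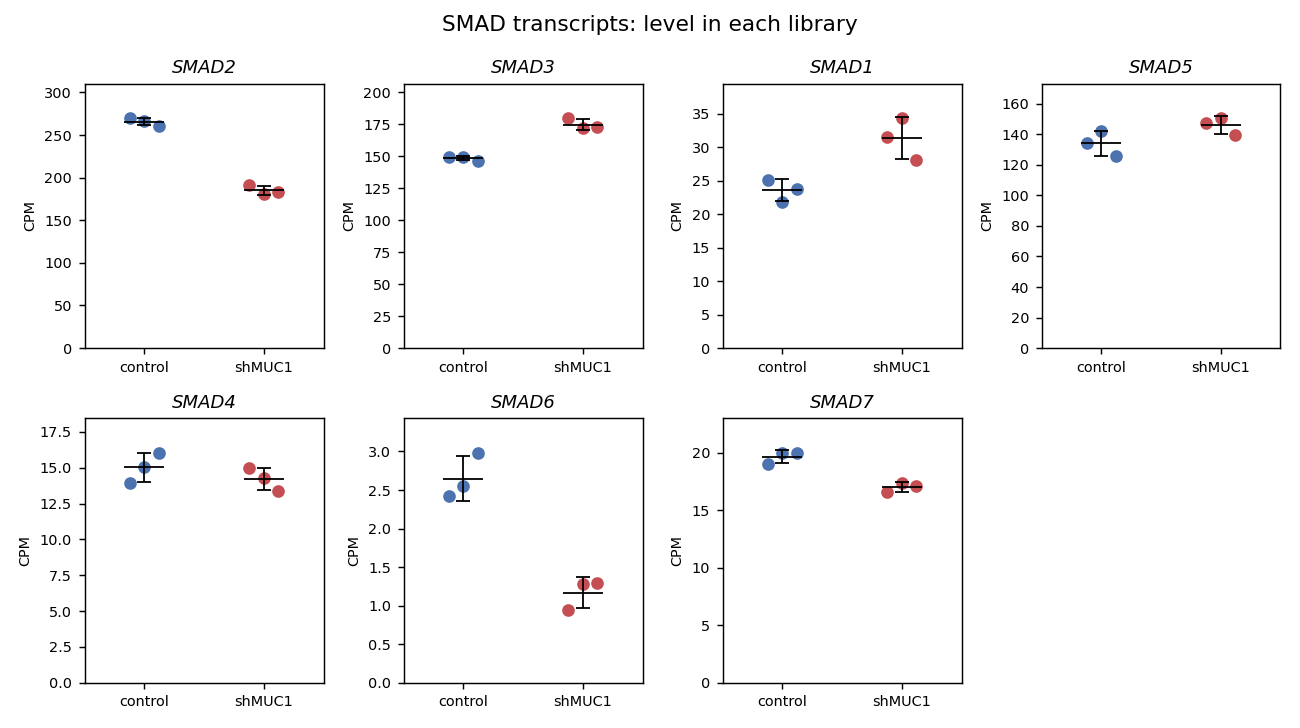
Each panel gives the level of 1 SMAD gene in CPM (y axis from 0) in the 3 control (blue) and 3 shMUC1 (red) libraries, with the mean and SD in black. SMAD2, SMAD6 and SMAD7 are lower and SMAD1 and SMAD3 higher in all shMUC1 libraries, whereas SMAD4 and SMAD5 overlap between groups.

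The 5 ubiquitin ligases and corepressors were all called, 4 lower (80%, beside 23.8% of all tested genes) and 1 higher (20%, beside 25.3%). SMURF2, an E3 ligase for receptors and SMADs (chr17:64542295-64662068), was at 138, 154.7 and 141 CPM in control and at 86.7, 92.6 and 88.5 CPM in shMUC1 libraries. The groups were well apart, at a log2 fold change of -0.69 (SE 0.0432, adjusted p = 8.21e-22). Its paralogue SMURF1 fell by 0.22 on the log2 scale (adjusted p = 0.000935), and exons of TRRAP on the opposite strand cover 11.7% of SMURF1. TGIF1, a homeodomain corepressor of SMAD2 and SMAD3, fell by 0.18 (adjusted p = 0.00253). SKI had the highest level per length of this group and of all members in control, 28.1 CPM per kilobase, and fell by 0.10 (adjusted p = 0.0257), a call that was lost without control replicate 3, shMUC1 replicate 2 or shMUC1 replicate 3 (adjusted p values of 0.0692, 0.0626 and 0.142). Its relative SKIL, itself known as a TGF-beta target, rose by 0.34 (adjusted p = 2.57e-10), from 106 ± 2.19 to 134 ± 6.38 CPM.

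Of the 4 tested target genes, 2 ID genes were higher (50%, beside 25.3% of all tested genes) and 0 were lower (beside 23.8%). ID proteins bind E proteins and keep them off DNA, and ID1, ID2 and ID3 are classical BMP targets. ID1 (chr20:31605283-31606515), with 10.4 CPM per kilobase in control the target with the highest level per length, was at 12.1, 13.5 and 12.6 CPM in control and at 23.1, 23.2 and 23.5 CPM in shMUC1 libraries. The shMUC1 libraries lay close together and all above control, at a log2 fold change of 0.86 (SE 0.0922, adjusted p = 2.8e-12). ID3 (chr1:23557918-23559794) had 4, 12 and 12 counts in control and 42, 64 and 38 counts in shMUC1 libraries, or 0.182, 0.493 and 0.465 CPM beside 1.52, 2.49 and 2.04 CPM. It had the largest rise of all members, at a log2 fold change of 2.37 (SE 0.399, adjusted p = 8.91e-07), at a low level in both groups. ID3 passed the filter on low counts through its shMUC1 libraries, with only 2 of 3 control libraries over the limit. Its values are therefore a description. ID2 was not called, at 0.11 (adjusted p = 0.409), with 14.2, 12.9 and 12.6 CPM in control and 13.8, 14.4 and 14.6 CPM in shMUC1 libraries. TGFBI, a matrix protein named for its induction by TGF-beta, was not called, at -0.11 (adjusted p = 0.331).

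Other genes of the pathway were taken from lists of ligands, regulators, receptors, transducers and response genes. Of 27 tested TGF-beta response genes, 13 were higher (48.1%, beside 25.3% of all tested genes) and 7 lower (25.9%, beside 23.8%). The share of lower genes was near that of all tested genes, and the median log2 fold change was 0.11. SNAI2, a repressor of epithelial genes, rose by 1.14 (adjusted p = 2.46e-17), and PDGFB, a growth factor, rose by 0.99 (adjusted p = 0.000146). The cytokine IL11 fell by 1.16 on the log2 scale (adjusted p = 6.14e-09), and the matrix protease MMP2 fell by 0.93 (adjusted p = 4.09e-10). Of 8 tested BMP response genes, 2 were higher (25%) and 3 lower (37.5%), with a median of -0.0153. The share of higher genes was near that of all tested genes. GATA3 rose by 0.88 (adjusted p = 0.000259) and GATA2 by 0.37 (adjusted p = 6.69e-06), both GATA transcription factors. The homeobox gene MSX1 fell by 0.42 (adjusted p = 0.000748), and RUNX2, a regulator of bone formation, fell by 0.36 (adjusted p = 3.94e-09).

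Of 15 tested transducers, 3 were higher (20%, beside 25.3% of all tested genes) and 6 lower (40%, beside 23.8%), with a median of -0.0711. PMEPA1, a TGF-beta-induced inhibitor of SMAD2 and SMAD3, was at 43.0, 43.5 and 46.1 CPM in control and at 20.4, 19.2 and 16.5 CPM in shMUC1 libraries (log2 fold change -1.23, SE 0.0755, adjusted p = 3.93e-22). MAP3K7, the TAK1 kinase of the SMAD-independent branch, fell by 0.71 (adjusted p = 3.59e-18). NEDD4L, a ubiquitin ligase for activated SMAD2 and SMAD3, rose by 0.55 (adjusted p = 3.72e-20), and TRIM33, which binds SMAD2, SMAD3 and SMAD4, rose by 0.23 (adjusted p = 4.16e-06).

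Upstream of the receptors, 7 of 17 tested antagonists and activators were lower (41.2%, beside 23.8% of all tested genes). In this list 3 were higher (17.6%, beside 25.3%), and the median was -0.19. BMPER, an extracellular BMP modulator, fell by 1.09 (adjusted p = 4.76e-14), and FSTL1, a secreted follistatin-like protein, fell by 0.88, from 1774 ± 20.1 to 962 ± 23.8 CPM (adjusted p = 1.27e-38). NBL1, a BMP antagonist, rose by 0.27 (adjusted p = 0.00112), and FURIN, the proprotein convertase that cleaves TGF-beta family precursors, rose by 0.25 (adjusted p = 0.000152). Of 7 tested further ligands, 3 were lower (42.9%, beside 23.8% of all tested genes) and 0 higher (beside 25.3%), with a median of -0.52. GDF11 fell by 0.57 (adjusted p = 8.59e-05) and BMP8B by 0.52 (adjusted p = 8.26e-08). All 3 tested further receptors and coreceptors were lower, beside 23.8% of all tested genes. The BMP coreceptors RGMB and NEO1 were at -0.69 and -0.28 (adjusted p = 1.82e-11 and 0.00104) and ENG at -0.27.

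**Figure D5:**
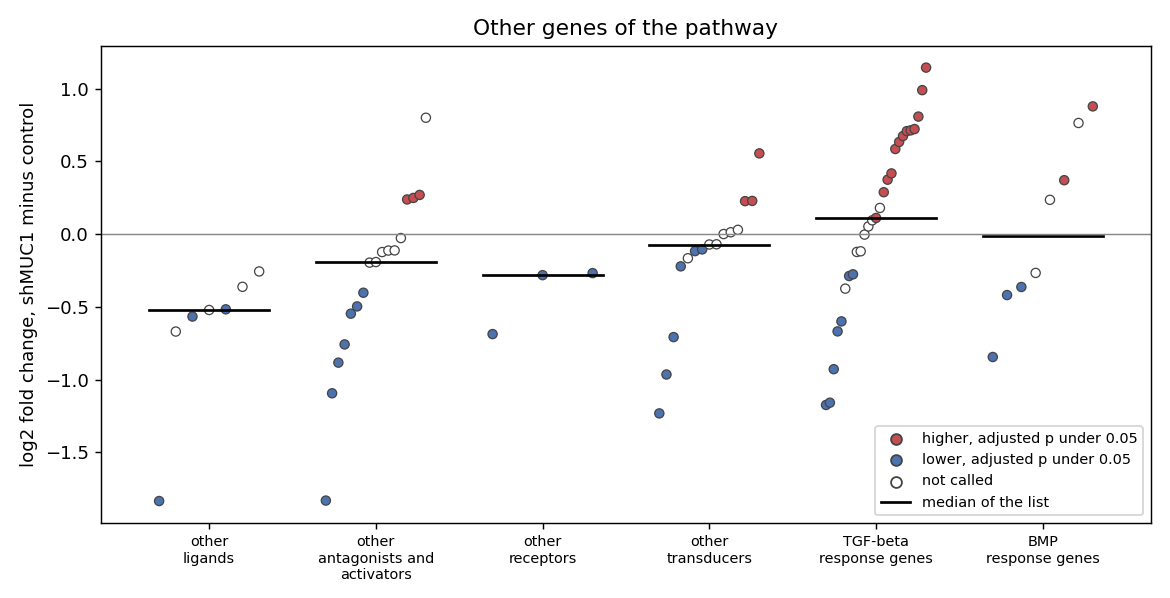
Each point gives the log2 fold change (shMUC1 minus control, y axis) of 1 tested gene in 6 lists of other pathway genes, filled red where called higher, blue where called lower and white where not called, with the list's median as a black line. Further ligands and receptors hold no gene called higher, beside 25.3% of all tested genes, whereas TGF-beta response genes run from -1.17 to 1.14.

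Markers of cell state moved between the groups. All 4 tested epithelial markers (CDH1, EPCAM, KRT8, KRT18) were higher, beside 25.3% of all tested genes. The summed level of the 10 listed was 541 to 575 CPM in control and 1092 to 1133 CPM in shMUC1 libraries. CDH1, at 0.0912, 0.370 and 1.01 CPM in control, passed the filter on low counts through its shMUC1 libraries. Its call is therefore a description. GRHL2 was at 0 in all libraries, and KRT19 and RAB25 were at 0 in the shMUC1 libraries. All 5 mesenchymal markers were lower, beside 23.8% of all tested genes. Their summed level was 1253 to 1311 CPM in control and 785 to 848 CPM in shMUC1 libraries. SPARC, at 0.362, 0.388 and 0.430 CPM in shMUC1 libraries, passed the filter through its control libraries, so its call is a description too. Other genes tied to epithelial-mesenchymal transition, counted here as TGF-beta response genes, were higher, with FN1 at 0.42 (adjusted p = 5.89e-22), SNAI1 at 0.37 (adjusted p = 0.00558) and SNAI2 at 1.14. FN1 and SNAI1 were named after their values were seen. Fibroblast, endothelial and immune markers summed to 2.36 to 3.60 CPM in control and 2.10 to 2.46 CPM in shMUC1 libraries, with LUM at 0 in all. Of the 3 tested, PTPRC was higher (1.59, adjusted p = 0.0103) and PECAM1 lower (-1.94, adjusted p = 0.000157), 33.3% each, beside 25.3% and 23.8%. They averaged 12.2 and 21.2 counts, and each passed the filter only through the group where it was higher. What the shifts in epithelial and mesenchymal markers add to the changes of ID1, SNAI2 and the receptors was not tested.

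The members' annotated 3′ UTRs were read for the 7-base word ATCAGTA, which earlier results of these data had tied to lower expression, so its shares are a description and no support for that link. Of the tested genes with an annotated 3′ UTR, 12.7% held the word, with 21.9% of the lower, 9.49% of the higher and 9.70% of the not called genes. Of the members, 2 of 17 lower genes (SMAD2 and BMPR1A), 0 of 11 higher genes and 2 of 15 not called genes (SMAD4 and TGFB2) held it. The shRNA's own sequence was not used here, and what the word does was not tested. The first site of SMAD2 and the sites of BMPR1A and TGFB2 are shown with the word in capitals, 29 bases each.
SMAD2 site: atttgcaccacATCAGTActacttaattt
BMPR1A site 1: aagttattttaATCAGTAtttttacattg
BMPR1A site 2: ttactctaacaATCAGTActtttcttcag
TGFB2 site: gtctttttcctATCAGTAccatcatcgag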

How the data were processed

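RNA was taken from MDA-MB-436 cells grown in triplicate, and sequenced as stranded poly(A) libraries. The table that the authors deposited holds unnormalized read counts by gene symbol, 1 column per library, without pooling. The submitters' processing notes name CASAVA 1.8.2, STAR 2.7.9a, featureCounts, DESeq2 1.24.0 and build GRCh38.p7, and the annotation release and strand setting are not given in the sources used here. Between 68.8% and 70.5% of values from 1 to 20 were even, so counts may hold both reads of a pair.

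Counts of 15355 genes that passed filterByExpr entered edgeR 4.0.16 and its quasi-likelihood F test (limma 3.58.1, R 4.3.3), two-sided, with TMM scaling, the group as the only term and Benjamini-Hochberg adjustment over all of them. A gene was called at an adjusted p under 0.05. CPM used TMM-scaled totals, and each SE was derived from the F statistic. Lengths were unions of annotated exons (GENCODE release 29, GRCh38), so levels per length depend on how many isoforms are annotated, and all 44 members matched. Members called with a fold change over 1.5 were given per library, SMAD1 to SMAD5 and the highest member of each role were always named, and each list gave its 2 largest rises and 2 largest falls, taken from called genes averaging 50 counts or more.

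The members and lists were chosen with earlier results of these data known, so lists were described and not tested. Alternatives were DESeq2 size factors, library totals, DESeq2 1.42.0, limma-voom, halved counts, no filter on low counts, a minimum mean of 50 counts, the replicate number as a block and leaving out each library. The scripts were tested on simulated data. Within groups, chi-square values per degree of freedom between libraries were 2.79 to 5.55, and all 6 were counted as replicates. Whether the cultures were independent beyond being in triplicate is not stated, so p-values measure the spread between these libraries. Without molecular identifiers, errors from counts cover counting only. A floor of 3 counts equals 0.161 CPM in the shallowest library.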

Additional observations from a re-analysis of the deposited data

How the results depend on the processing

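Of 708 recomputed values (51 results under up to 14 alternatives), 662 kept their direction and side of the threshold or their size. The median log2 fold change of the BMP arm changed sign without the low-count filter (0.0055), in limma-voom (0.0034) and with a replicate block (0.0022), and ran from -0.0461 (without control replicate 3) to 0.0096 (without shMUC1 replicate 1) when a library was left out. That of the TGF-beta/activin arm ran from -0.1808 (without control replicate 3) to -0.1081. With a mean of at least 50 counts, 37 members were tested and the counts past a fold change of 2 were 1 higher and 0 lower, since ID3 and SMAD6 were then not tested. Leaving out 1 library gave 9 to 13 members higher, 13 to 16 lower, 2 to 3 higher and always 1 lower past a fold change of 2, and a median of -0.1261 to -0.0849 for the shared members. TGFBR2 lies at the fold threshold of 2.

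Among single members, signs changed in 4 that were not called. These were BAMBI with a mean of at least 50 counts (-0.0008), in limma-voom (-0.0047) and, over left-out libraries, BAMBI from -0.1261 to 0.1108, INHBB from -0.2313 to 0.0289, TGFB2 from -0.075 to 0.0076 and BMP2 from -0.0734 to 0.3956. SMAD7 lost its call in DESeq2 (adjusted p = 0.0575), with the replicate block (0.0603) and without the low-count filter (0.0945), where TGFBR3 (0.0698) and SKI (0.0705) lost theirs too. The cause was not tested.

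Deviations of libraries with the same replicate number correlated at 0.0179, -0.0308 and -0.0361, so the numbers do not pair the samples. With the block, 27 of the 28 called members were called, and SMAD7 was the exception. The depth limits ID3, SMAD6, NOG, BMP2, BMP4 and GREM1, each with a mean under 50 counts.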
